A study of Mus musculus with 4 samples.

Results

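The genes described here are 35 mouse genes of meiotic prophase, of 54920 genes listed in each library. They were chosen by name, from their known roles: parts of the synaptonemal complex, cohesin subunits of meiosis, RNA-binding proteins of meiotic entry, proteins that make or repair the programmed DNA breaks, proteins of crossover formation and proteins that attach telomeres to the nuclear envelope. RNA-seq was available for ID4-EGFP+ spermatogonia sorted at postnatal day 8 (P8), in 2 control and 2 *Cnot3*-cKO libraries. Control mice were *Cnot3* flox/flox and carried *Id4-eGfp* without a Cre, although their libraries are labelled wild-type, and *Cnot3*-cKO mice carried *Ddx4-creER* as well, a tamoxifen-inducible Cre under the promoter of the germ cell gene *Ddx4*. Mice of both groups were injected with 4-hydroxytamoxifen from P1 to P3, so the controls shared the floxed alleles and the drug but not the Cre. The replicates of this RNA-seq were described as biological and as 3 in number, whereas 2 libraries a group were analysed here. Whether a library came from 1 mouse or a pool is not given in the sources used here, and the p-values measure the spread between these libraries.

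Meiosis starts when spermatogonia stop dividing by mitosis, copy their DNA once more and enter a long prophase. During that prophase the chromosomes are rebuilt on axes of cohesin and HORMA-domain proteins, SPO11 cuts the DNA, the breaks are repaired from the homologous chromosome, and the synaptonemal complex zips the homologues together. Spermatogonia stand before this programme, and many of its transcripts are already made in them ahead of their proteins. CNOT3 is a subunit of CCR4-NOT, the complex that shortens the poly(A) tails of mRNAs and so promotes their decay. The comparison of the groups asks which of these transcripts differ in level when *Cnot3* is deleted in germ cells before meiosis.

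The targeted gene was checked first. *Cnot3* (chr7:3645268-3661109, plus strand, GRCm38) was at 58.6 and 50.2 CPM (read counts scaled to library totals corrected by TMM) in the controls and at 19.2 and 19.9 CPM in the *Cnot3*-cKO libraries. The groups did not overlap, and the fitted level was 0.360 of the control level (log2 fold change -1.48, SE 0.13, Benjamini-Hochberg adjusted p = 1.48e-05 over all 23952 tested genes, from the quasi-likelihood test of edgeR). Totals were 40957899 and 43378493 reads in the controls and 22192964 and 28019626 in the *Cnot3*-cKO libraries. The sorted cells expressed germ cell genes, with a summed level of 6027 to 6433 CPM over 9 pan-germ cell markers in controls and 5418 to 5634 CPM in *Cnot3*-cKO libraries, of which 1 rose and 3 fell. Markers of other cells differed as well: all 11 Sertoli cell markers rose, from 249.8 to 271.5 CPM in sum to 725.3 to 738.3 CPM, as did all 5 tested Leydig cell markers (from 322.4 to 367.6 CPM up to 830.6 to 896.4 CPM) and all 8 macrophage markers (175.4 to 267.5 CPM, then 483.1 to 591.8 CPM), while *Insl3*, a defining Leydig gene, was at 0 in every library. Among peritubular myoid markers 2 of 6 rose (19.6 to 24.2 CPM, then 35.4 to 42.7 CPM), and 2 of 4 tested endothelial markers rose (21.0 to 23.4 CPM, then 35.1 to 40.4 CPM). Of the germ cell stages, 6 of 7 progenitor markers fell (559.1 to 561.0 CPM in sum, then 272.7 to 279.8 CPM), as did 4 of 6 differentiating markers (788.9 to 859.5 CPM, then 581.3 to 598.6 CPM). Of 11 stem cell markers 6 rose and 1 fell, while their sums overlapped (802.3 to 933.6 CPM, then 883.4 to 897.0 CPM). The marker that fell was *Zbtb16*, the most abundant of the 11 in controls, so these sums lean on it. It was at 435.6 and 364.0 CPM in controls and at 242.6 and 211.6 CPM in *Cnot3*-cKO libraries. The part of these markers in the results that follow was not tested, and in bulk RNA fewer cells of a type and less RNA per cell cannot be told apart.

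**Figure D1:**
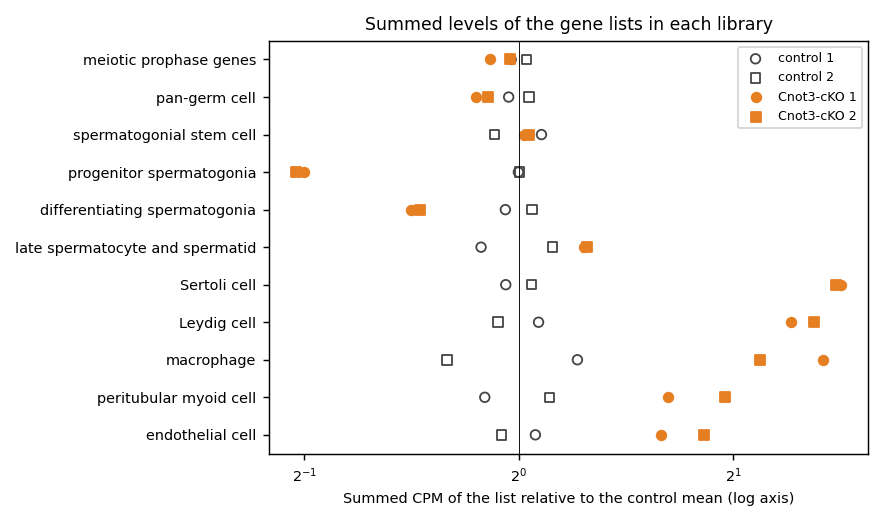
Summed CPM of the 35 meiotic prophase genes and of 10 marker lists in each library, divided by the mean of the 2 controls, on a log axis. The meiotic prophase genes stay close to 1 in every library, progenitor and differentiating markers lie to the left in both *Cnot3*-cKO libraries, and Sertoli, Leydig and macrophage markers lie to the right.

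All 35 genes passed the expression filter. The lowest count of any of them in a library was 40, and their totals over the 4 libraries ran from 253 to 168223 reads. In *Cnot3*-cKO spermatogonia 4 of the 35 rose, namely *Smc1b*, *Hormad1*, *Meiob* and *Spata22*, and 5 fell, namely *Meioc*, *Tex15*, *Syce2*, *Ythdc2* and *Tex11* (adjusted p under 0.05). Those 9 are 25.7% of the list, beside 20.6% of all tested genes that passed in either direction, 11.4% beside 11.1% for higher calls and 14.3% beside 9.46% for lower calls. The share of the list that passed was thus near that of all genes, and the median log2 fold change of the 35 was 0.04 beside 0.01 over all tested genes. At the study's stricter thresholds, which ask for more than a 2-fold change and an adjusted p under 0.01, *Meiob* alone was called higher and *Meioc* alone lower, beside 4.03% of all genes called higher and 0.735% called lower. The *Cnot3*-cKO libraries both lay above both controls for 12 genes (30.5% of all tested genes did so) and below both for 8 (28.6% of all tested genes), together 57.1% of the list beside 59.1% of all tested genes. The summed level of the list was 4955 and 5206 CPM in controls and 4631 and 4938 CPM in *Cnot3*-cKO libraries. The *Cnot3*-cKO libraries were thus the lower, by a gap between the nearest libraries smaller than the spread within either group. That sum leans on *Tex15*, the most abundant of the 35, which held 1408 and 1462 CPM of it in controls and 892 and 1040 CPM in *Cnot3*-cKO libraries. By gene, 22 of the 35 had a log2 fold change above 0 and 13 had one below.

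**Figure D2:**
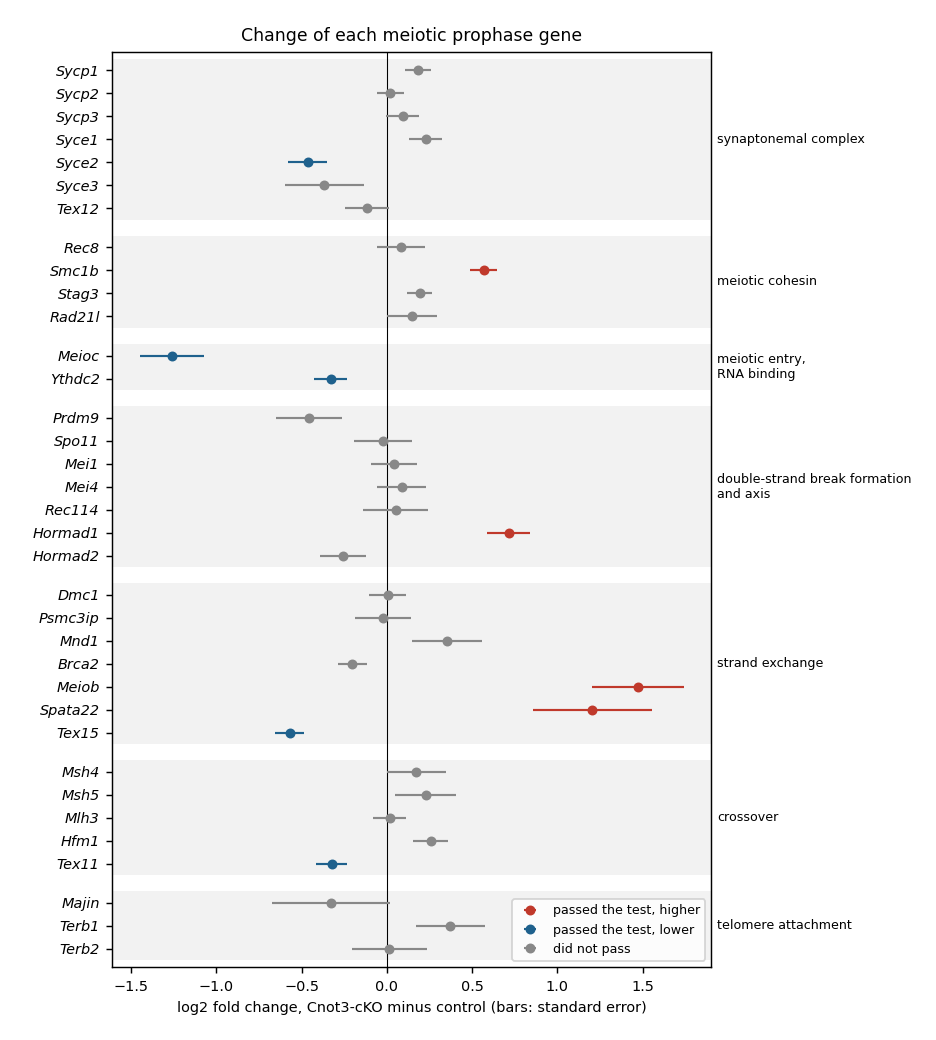
log2 fold change (*Cnot3*-cKO minus control) of each of the 35 genes by role, with its standard error as a bar; red marks genes that rose, blue those that fell and grey those that did not pass. *Meiob* (1.47) and *Meioc* (-1.26) lie farthest from 0 on the right and left, and each role except meiotic entry holds genes that did not pass.

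**Figure D3:**
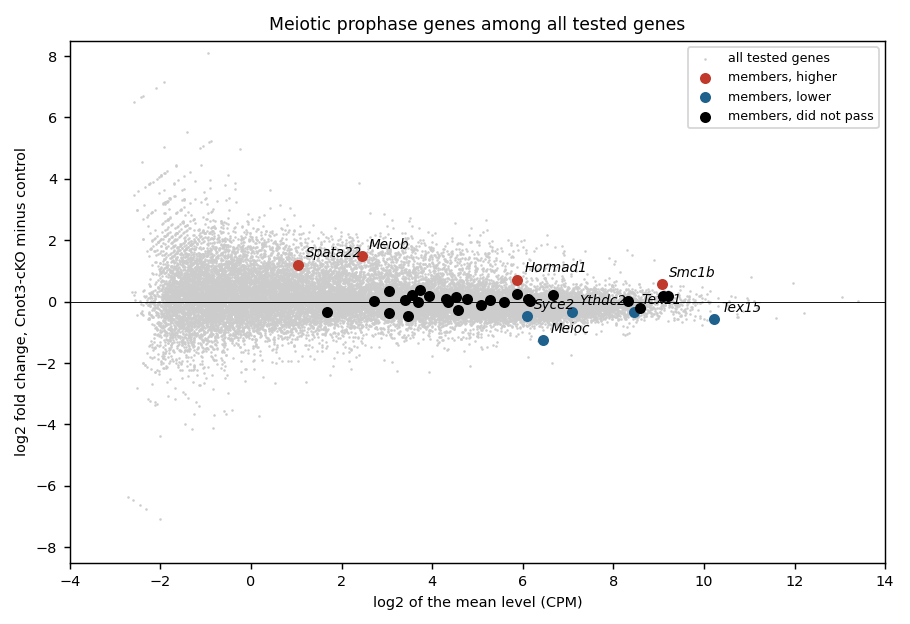
log2 fold change against the log2 mean CPM for all 23952 tested genes (light grey), with the 35 meiotic prophase genes on top. Most of the 35 lie in the dense band around 0, and *Spata22* and *Meiob* sit at low levels while *Tex15* has the highest mean CPM of the 35.

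The most changed gene downwards was *Meioc*, whose product works with the RNA helicase YTHDC2 to turn off the mitotic programme as germ cells enter meiosis. *Meioc* lies on chromosome 11, and its promoter is shown because it is the gene of the list that fell most. The 250 bases before its RefSeq start site (GRCm38.p6, chr11:102665335-102665584, plus strand) read as follows from 5′ to 3′, and the capitals mark the reverse complement of TCCCGC, the core letters bound by E2F6 and its relatives.
Meioc: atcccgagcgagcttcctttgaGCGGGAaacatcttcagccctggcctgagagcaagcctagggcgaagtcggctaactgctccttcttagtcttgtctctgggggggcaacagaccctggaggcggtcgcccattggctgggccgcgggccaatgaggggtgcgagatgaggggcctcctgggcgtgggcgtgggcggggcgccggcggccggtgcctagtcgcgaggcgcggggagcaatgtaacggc
The levels of *Meioc* were 94.8 and 151 CPM in controls and 43.2 and 59.4 CPM in *Cnot3*-cKO libraries. Both *Cnot3*-cKO libraries lay below both controls, and the controls also differed widely from each other. The fitted level was 0.418 of control (log2 fold change -1.26, SE 0.19, adjusted p = 6.92e-04), but with a robust dispersion fit, which gives genes of unusual spread a wider error, the adjusted p was 0.0935, the highest over the 14 other settings, which otherwise gave at most 0.0158. Without control replicate 2 the log2 fold change was -0.89, short of a 2-fold drop. Its partner *Ythdc2* was at 140 and 163 CPM in controls and at 118 and 124 CPM in *Cnot3*-cKO libraries. Again the groups did not overlap, but the gap between them was narrower than that between the controls, and the change was small (log2 fold change -0.33, SE 0.10, adjusted p = 0.0298). The call for *Ythdc2* was lost when control replicate 2 (-0.23), *Cnot3*-cKO replicate 1 (-0.30) or *Cnot3*-cKO replicate 2 (-0.37) was left out, under library size scaling (-0.26) and under scaling to pan-germ cell markers (-0.15). *Rbm46*, which encodes the RNA-binding protein that joins MEIOC and YTHDC2 and is not one of the 35, was at 189 and 196 CPM in controls and at 114 and 135 CPM in *Cnot3*-cKO libraries, and it fell as well (log2 fold change -0.63, SE 0.10, adjusted p = 8.11e-04).

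Among the 4 meiotic cohesin genes, *Smc1b* rose and the other 3 did not pass. Cohesin rings hold sister chromatids together, and SMC1B takes the place of SMC1A in meiotic rings. The promoter of *Smc1b* is shown as that of an abundant gene that rose (GRCm38.p6, chr15:85131958-85132207, minus strand); capitals mark TCCCGC, which begins 47 bases before the start site.
Smc1b: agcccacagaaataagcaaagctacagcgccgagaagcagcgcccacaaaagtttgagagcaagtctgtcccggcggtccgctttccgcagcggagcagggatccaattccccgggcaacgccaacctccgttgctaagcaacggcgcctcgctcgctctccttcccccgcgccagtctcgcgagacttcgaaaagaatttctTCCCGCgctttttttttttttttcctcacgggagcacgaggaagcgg
*Smc1b* was at 429 and 442 CPM in controls and at 620 and 671 CPM in *Cnot3*-cKO libraries. The libraries of each group lay close together, with a clear gap between the groups. The fitted level was 1.48 of control (log2 fold change 0.57, SE 0.08, adjusted p = 3.50e-04), and the call held with any one library left out. *Stag3*, the meiotic STAG subunit, had values of 541 and 559 CPM in controls and 632 and 623 CPM in *Cnot3*-cKO libraries, which do not overlap, at a log2 fold change of 0.19 (SE 0.07, adjusted p = 0.0870), and it passed as higher under library size scaling, under pan-germ cell scaling, with a mean count of at least 50 and without control replicate 2 (0.20). The kleisins, the subunits that close the ring, gave 0.08 (SE 0.14) for *Rec8* and 0.15 (SE 0.15) for *Rad21l*, and their groups overlapped. The mitotic counterparts did not pass either, with a log2 fold change of -0.14 (SE 0.09) for *Smc1a* and -0.04 (SE 0.08) for *Rad21*. Scaling to pan-germ cell markers turned the sign of these last values, to 0.04 and 0.13. Over the list of 11 genes of mitotic cohesin and its regulators, 3 rose (*Smc3*, *Stag2* and *Esco2*), 1 fell (*Esco1*) and the median log2 fold change was -0.04, which turned to 0.03 under library size scaling and 0.14 under pan-germ cell scaling. The shares were 27.3% higher and 9.09% lower, beside 11.1% and 9.46% of all tested genes. These 4 cohesin genes, like all genes outside the 35 that are named here as passing except *Stra8* and *Mybl1*, were named after their values were seen.

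The synaptonemal complex is built of lateral elements (SYCP2, SYCP3), transverse filaments (SYCP1) and a central element (SYCE1, SYCE2, SYCE3, TEX12). Of these 7 genes, *Syce2* fell and the other 6 did not pass. *Syce2* has a pair of start sites in RefSeq, and the promoter of the upstream start is shown because *Syce2* was the one gene of the complex that passed (GRCm38.p6, chr8:84871861-84872110, plus strand). Capitals mark TCCCGC, which begins 115 bases before that start.
Syce2: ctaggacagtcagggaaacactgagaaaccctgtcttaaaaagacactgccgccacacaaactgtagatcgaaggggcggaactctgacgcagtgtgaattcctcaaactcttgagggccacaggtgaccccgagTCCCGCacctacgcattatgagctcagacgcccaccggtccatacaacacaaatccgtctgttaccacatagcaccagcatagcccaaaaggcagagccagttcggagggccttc
*Syce2* was at 72.0 and 86.1 CPM in controls and at 60.2 and 54.5 CPM in *Cnot3*-cKO libraries. Both *Cnot3*-cKO values were below both controls, by less than the distance between the controls for the nearest pair. The fitted level was 0.726 of control (log2 fold change -0.46, SE 0.11, adjusted p = 0.0128), and the call was lost without *Cnot3*-cKO replicate 2 (-0.40) and under scaling to pan-germ cell markers (-0.29). *Tex12*, whose product pairs with SYCE2, was at 32.9 and 37.6 CPM in controls and at 30.4 and 34.6 CPM in *Cnot3*-cKO libraries, with overlapping groups (log2 fold change -0.12, SE 0.13). *Syce3* gave -0.37 (SE 0.23) on 7.52 and 11.01 CPM in controls and 7.99 and 6.42 CPM in *Cnot3*-cKO libraries, and it passed as lower without control replicate 1 (-0.63). On the other side of 0 were *Sycp1* at 0.18 (SE 0.08), *Syce1* at 0.23 (SE 0.09), *Sycp3* at 0.09 (SE 0.10) and *Sycp2* at 0.02 (SE 0.08). The groups did not overlap for *Sycp1* (496 and 530 CPM, then 571 and 593 CPM) and *Syce1* (92.4 and 96.0 CPM, then 116 and 104 CPM, controls first), and both passed, as higher, under library size scaling and under scaling to pan-germ cell markers, as did *Sycp1* without control replicate 2 (0.22). *Sycp3* shares 52.2% of its exon bases with the oppositely transcribed *Chpt1*, and the strand setting of the counting is not given in the sources used here, so its counts are uncertain.

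Break formation and the chromosome axis were represented by 7 genes, of which *Hormad1* rose and 6 did not pass. HORMAD1 coats unsynapsed axes and is needed for normal numbers of breaks. The promoter of *Hormad1* is shown because it carried both E-box and E2F6-type letters (GRCm38.p6, chr3:95559427-95559676, plus strand). Both also occurred before *Sycp3* and *Tex12*, which did not pass, and before the second start of *Syce2*, which fell. In the *Hormad1* window capitals mark the reverse complement of TCCCGC, beginning 95 bases before the start. They also mark CACGTG, the E-box that MAX dimers bind, beginning 57 and 20 bases before the *Hormad1* start.
Hormad1: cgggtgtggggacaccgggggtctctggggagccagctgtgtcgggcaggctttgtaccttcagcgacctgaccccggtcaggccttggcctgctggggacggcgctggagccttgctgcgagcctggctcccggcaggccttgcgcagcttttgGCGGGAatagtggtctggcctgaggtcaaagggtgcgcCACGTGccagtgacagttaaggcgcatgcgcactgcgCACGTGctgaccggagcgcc
*Hormad1* was at 40.7 and 48.8 CPM in controls and at 66.3 and 80.4 CPM in *Cnot3*-cKO libraries. Both *Cnot3*-cKO libraries were above both controls, at 1.64 of the control level (log2 fold change 0.71, SE 0.13, adjusted p = 0.00198), also with any one library left out. Its relative *Hormad2* was at 25.8 CPM in both controls and at 21.4 and 21.7 CPM in *Cnot3*-cKO libraries, below but not past the test (log2 fold change -0.26, SE 0.13, adjusted p = 0.208). *Prdm9*, which places the histone marks where breaks will form, was at 11.97 and 13.6 CPM in controls and at 8.21 and 10.4 CPM in *Cnot3*-cKO libraries (log2 fold change -0.45, SE 0.19, adjusted p = 0.121). *Spo11*, which encodes the enzyme that cuts the DNA, was at 13.8 and 12.3 CPM in controls and at 12.6 and 13.1 CPM in *Cnot3*-cKO libraries. The *Cnot3*-cKO values lay between those of the controls (log2 fold change -0.02, SE 0.17), and the sign of so small a value turned with the scaling. Its accessory factors were also close to 0, at 0.04 (SE 0.13) for *Mei1*, 0.09 (SE 0.14) for *Mei4* and 0.05 (SE 0.19) for *Rec114*. *Rec114* shares 26.9% of its exon bases with the opposite-strand gene *Nptn*.

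In the group of 7 strand exchange genes, *Meiob* and *Spata22* rose, *Tex15* fell and 4 did not pass. MEIOB and SPATA22 form a complex on single-stranded DNA together with RPA, and each needs the other to stay on the breaks. The promoter of *Spata22* is shown as that of one partner of this pair (GRCm38.p6, chr11:73329491-73329740, plus strand), with TCCCGC in capitals from 22 bases before the start.
Spata22: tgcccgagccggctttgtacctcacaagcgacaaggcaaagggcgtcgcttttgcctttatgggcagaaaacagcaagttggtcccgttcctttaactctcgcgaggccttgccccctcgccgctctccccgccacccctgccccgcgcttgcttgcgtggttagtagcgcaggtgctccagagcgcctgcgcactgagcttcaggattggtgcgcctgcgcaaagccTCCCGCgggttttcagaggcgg
*Meiob* was at 3.53 and 2.23 CPM in controls and at 8.74 and 7.26 CPM in *Cnot3*-cKO libraries, on 142, 94, 198 and 208 reads. *Spata22* was at 1.14 and 1.35 CPM in controls and at 2.47 and 3.28 CPM in *Cnot3*-cKO libraries, on 46, 57, 56 and 94 reads. The groups did not overlap for either gene, and in both the *Cnot3*-cKO libraries were the higher. The fitted levels were 2.77 of control for *Meiob* (log2 fold change 1.47, SE 0.27, adjusted p = 0.00243) and 2.31 for *Spata22* (log2 fold change 1.21, SE 0.35, adjusted p = 0.0286). The call for *Meiob* held with any one library left out, while that for *Spata22* was lost without control replicate 1 (1.07), without *Cnot3*-cKO replicate 2 (0.98) and by DESeq2 (adjusted p = 0.0638, within a range of 0.0141 to 0.222 over the 14 other settings). Per kilobase of exon these were the least abundant of the 35 in controls, with 1.60 ± 0.51 CPM per kb for *Meiob* and 0.98 ± 0.12 for *Spata22* (SD, n = 2). *Spata22* shares 80.5% of its exon bases with *Gm49340* on the same strand, which had 0 counts in every library, so its counts are uncertain as well.

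*Tex15* encodes a large protein that helps load recombinases on breaks and, before birth, silences transposons through the piRNA pathway. It was at 1408 and 1462 CPM in controls and at 892 and 1040 CPM in *Cnot3*-cKO libraries. The groups lay far apart relative to their spread, and the fitted level was 0.673 of control (log2 fold change -0.57, SE 0.08, adjusted p = 5.41e-04), with the call kept when any one library was left out. The recombinase gene *Dmc1* was at 50.2 and 46.5 CPM in controls and at 49.7 and 47.3 CPM in *Cnot3*-cKO libraries, so that the *Cnot3*-cKO values lay between the controls (log2 fold change 0.00, SE 0.11). Its cofactors gave -0.02 (SE 0.16) for *Psmc3ip*, which shares 21.2% of its exon bases with the opposite-strand gene *Mlx*, and 0.35 (SE 0.21) for *Mnd1*. *Brca2*, which loads recombinases in all cells, gave -0.20 (SE 0.08, adjusted p = 0.111) on 431 and 397 CPM in controls and 342 and 377 CPM in *Cnot3*-cKO libraries, and it passed as lower without control replicate 2 (-0.27) and without the expression filter (-0.23).

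**Figure D4:**
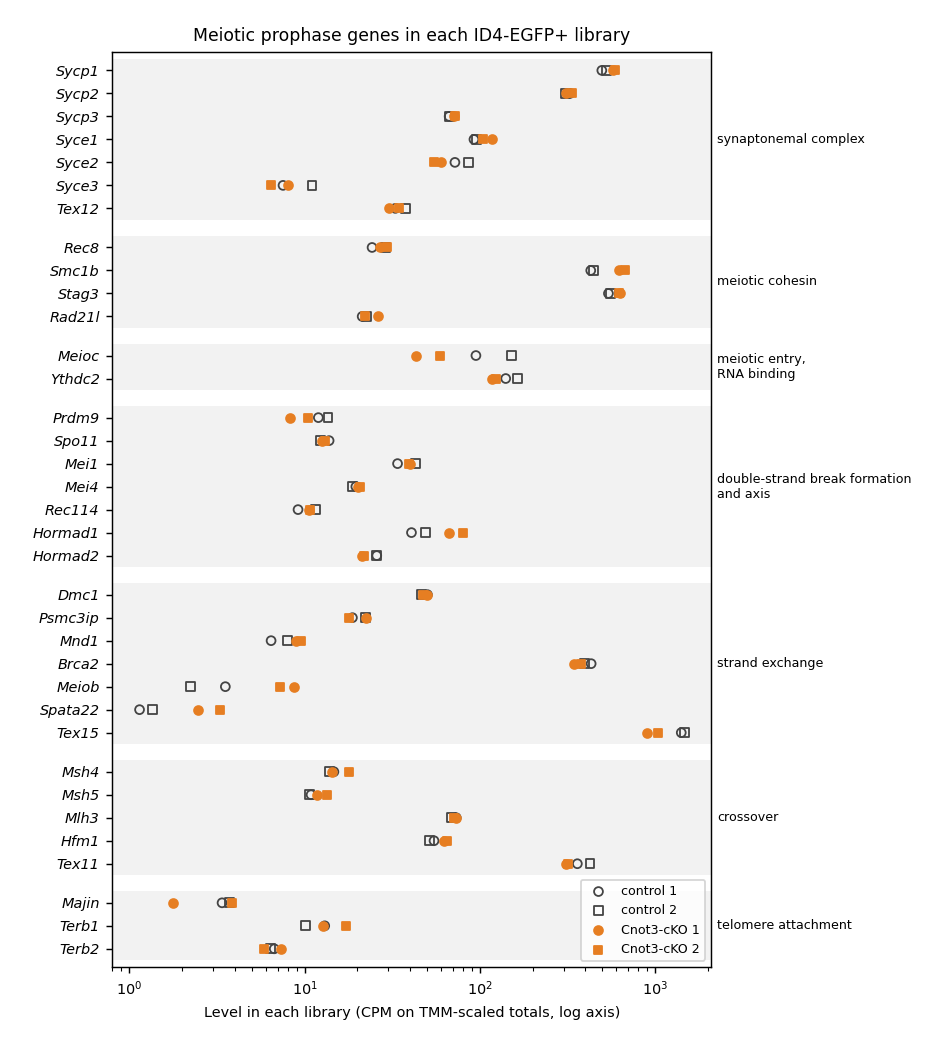
CPM of the 35 genes in each library on a log axis, by role; open symbols are controls, filled orange symbols *Cnot3*-cKO, and circles and squares are replicates 1 and 2. *Tex15* is the highest and *Spata22* the lowest in controls, and for many genes the 4 symbols lie almost on top of each other.

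Of the 5 crossover genes *Tex11* fell and 4 did not pass. TEX11 is an X-linked protein of recombination sites whose loss disturbs pairing and crossing over. It was at 360 and 425 CPM in controls and at 308 and 318 CPM in *Cnot3*-cKO libraries, with no overlap, though the controls differed more from each other than the nearest control and *Cnot3*-cKO libraries did. The fitted level was 0.799 of control (log2 fold change -0.32, SE 0.09, adjusted p = 0.0238), and the call was lost without *Cnot3*-cKO replicate 1 (-0.31) or 2 (-0.35), under library size scaling (-0.26) and under scaling to pan-germ cell markers (-0.15). The MutS partners that stabilise crossover intermediates gave 0.17 (SE 0.17) for *Msh4* and 0.23 (SE 0.18) for *Msh5*. *Mlh3*, a MutL subunit that resolves them, gave 0.02 (SE 0.10). *Hfm1*, a helicase gene, was at 54.7 and 51.5 CPM in controls and at 62.3 and 64.7 CPM in *Cnot3*-cKO libraries, without overlap and without passing the test (log2 fold change 0.26, SE 0.10, adjusted p = 0.101). It passed as higher under library size scaling, under scaling to pan-germ cell markers and with a mean count of at least 50. The 3 genes of telomere attachment, which tie chromosome ends to the nuclear envelope, were all low and did not pass. *Terb1* gave 0.37 (SE 0.20), *Terb2* 0.01 (SE 0.22) and *Majin* -0.33 (SE 0.35), and in each the groups overlapped. *Terb1* passed as higher without control replicate 1 (0.55). *Majin* had 40 and 110 reads in the *Cnot3*-cKO libraries, and its value was 0.10 without replicate 1 and -1.01 without replicate 2 of that group, neither past the test.

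The levels of the 35 genes differed widely within these premeiotic cells. Per kilobase of exon, the highest in controls were *Tex15* at 149 ± 4.0 CPM per kb, *Sycp1* at 144 ± 6.8, *Tex11* at 108 ± 13 and *Smc1b* at 108 ± 2.3 (SD, n = 2), and 17 of the 35 were under 10 CPM per kb. The order of *Tex15* and *Sycp1*, and that of *Tex11* and *Smc1b*, did not differ beyond the spread of the controls. In *Cnot3*-cKO libraries the order at the top was *Sycp1* at 164 ± 4.2 CPM per kb, *Smc1b* at 160 ± 8.9, *Stag3* at 109 ± 1.1 and *Tex15* at 100 ± 11. *Tex15* thus ranked 1 among the 35 in controls and 4 in *Cnot3*-cKO libraries, where *Stag3* and *Tex15*, and likewise *Sycp1* and *Smc1b*, did not differ beyond their spread. Of 8 genes known from late spermatocytes and spermatids, *Prm1*, *Tnp1*, *Pgk2* and *Acrv1* were under 1 CPM in every library, whereas *Piwil1* (21.3 to 22.7 CPM over the 4 libraries) and *Hspa2* (15.4 to 21.0 CPM) did not pass the test and were well above that level. The summed level of the list was 51.7 to 65.2 CPM in controls and 72.2 to 72.8 CPM in *Cnot3*-cKO libraries. Of the 7 tested genes of this list 2 rose, which is 28.6% beside 11.1% of all tested genes. One was *Ldhc*, a lactate dehydrogenase of spermatocytes, at 1.49 and 1.90 CPM in controls and 5.78 and 4.71 CPM in *Cnot3*-cKO libraries. The other was *H1f6*, a testis linker histone, at 10.4 and 19.3 CPM in controls and 27.1 and 27.9 CPM in *Cnot3*-cKO libraries.

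Further meiotic prophase genes outside the 35 were listed too. Of 23 tested, 2 rose (*Rnf212* and *Ccnb1ip1*, RING proteins that select crossover sites), 2 fell (*Rbm46* and *Tdrd9*) and the median log2 fold change was 0.01. The share was 8.70% in each direction, while 11.1% of all tested genes rose and 9.46% fell. Of 16 tested regulators of meiotic gene expression, 7 fell and 1 rose, with a median log2 fold change of -0.26, or -0.09 under pan-germ cell scaling. The share that fell was 43.75%, beside 9.46% of all tested genes, and the share that rose was 6.25%, beside 11.1%. Some regulators are also markers counted above, among them *Stra8*, *Sohlh1* and *Sohlh2* of the differentiating list, so these lists are not separate. *Stra8*, the retinoic acid target that starts meiosis, was at 87.1 and 113 CPM in controls and at 37.6 and 48.3 CPM in *Cnot3*-cKO libraries. Both *Cnot3*-cKO libraries lay far below both controls (log2 fold change -1.22, SE 0.14, adjusted p = 1.30e-04). *Mybl1*, which encodes the A-MYB factor of pachytene transcription, was at 15.0 and 13.1 CPM in controls and at 26.4 and 31.0 CPM in *Cnot3*-cKO libraries. It was the one regulator that rose (log2 fold change 1.03, SE 0.15, adjusted p = 6.41e-04). The other 6 that fell were *Tcfl5*, *Sohlh2*, *Dmrt1*, *Taf7l*, *E2f6* and *L3mbtl2*. *Sohlh1* gave -0.18 (SE 0.12) and did not pass. Whether the regulators differed from the 35 was not tested.

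The promoters were read for the letters of factors known to act on germ cell and meiotic genes. RefSeq entries (GRCm38.p6) were matched for 28 of the 35, without *Tex15*, *Terb2*, *Majin*, *Tex11*, *Ythdc2*, *Spo11* and *Meiob*. Windows of 250 bases before each start were searched on both strands for TCCCGC (E2F6-type), CACGTG (the E-box) and CNCCTCAG (bound by STRA8 with MEIOSIN). TCCCGC was in 14 of the 28 promoters (50%), beside 30.3% of 13955 tested genes with an entry and 18.8% of all 27025 genes with one. CACGTG was in 7 (25%), beside 9.15% of tested genes, and CNCCTCAG was in 5 (17.9%), beside 8.62%. For a gene with more than 1 start, a motif counted if any of its windows held it, and CpG sites were taken from the window with the most. Counted so, the median number of CpG sites in the window was 13 for the 28 and 15 for the tested genes. Within the 28 it was 22 for the 3 rising genes, 23 for the 2 falling genes and 12 for the 23 that did not pass. TCCCGC was present in all 3 rising genes and both falling genes with an entry and in 9 of 23 that did not pass, so the letters occurred on both sides of 0. CNCCTCAG occurred in 1 of the falling genes, at the second start of *Syce2*, where it overlaps the reverse complement of TCCCGC, and in 4 of those that did not pass. The window of that *Syce2* start also held CACGTG, from 88 bases before it. These matches describe letters in the windows and do not show binding.

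**Figure D5:**
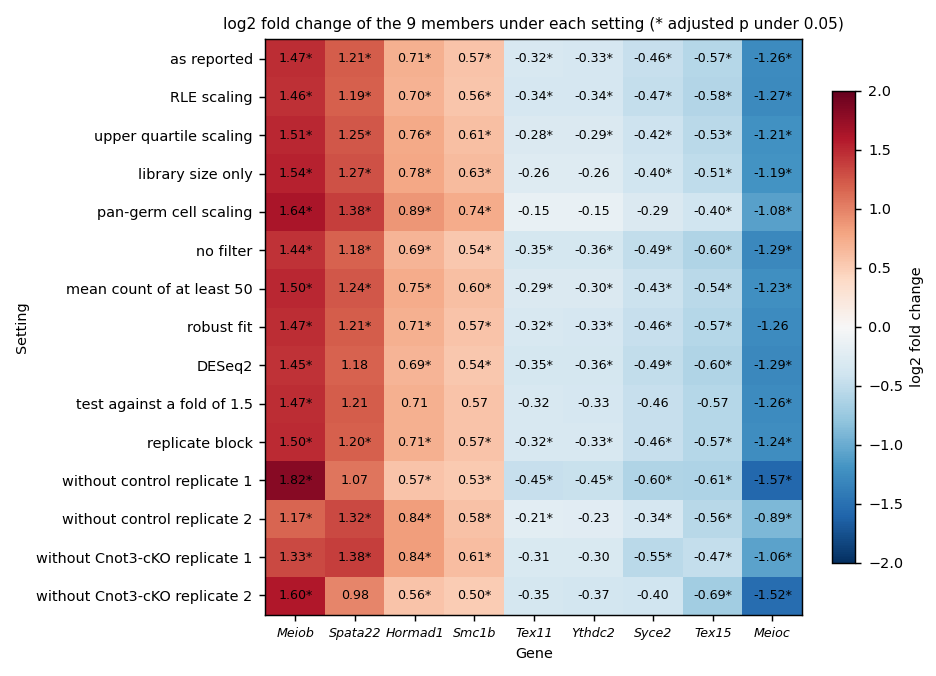
log2 fold change of the 9 genes that passed (columns) under the reported and each other setting (rows), coloured from blue (lower in *Cnot3*-cKO) to red (higher); an asterisk marks an adjusted p under 0.05. Every value keeps its sign, the values of *Meiob* and *Meioc* pass in all rows but the robust fit for *Meioc*, and *Tex11*, *Ythdc2*, *Syce2* and *Spata22* lose their asterisk in several rows.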

How the data were processed

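ID4-EGFP+ spermatogonia were sorted from control and *Cnot3*-cKO mice, and groups were taken from the sample titles. The deposited values were whole-number read counts per gene symbol, made by the authors with STAR on mm10 and featureCounts. How strand and multiply mapped reads were handled is not given in the sources used here, and the counts had not been normalized. All further values were computed from these counts.

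Genes were filtered with filterByExpr and scaled with TMM in edgeR 4.0.16 (R 4.3.3), and tested with its quasi-likelihood F test, *Cnot3*-cKO against control, with Benjamini-Hochberg adjustment over 23952 genes. Log2 fold changes and SE come from that fit, and ± is the SD of 2 libraries. A permutation of 2 against 2 libraries cannot go below a p of 0.333, so no such test was used. CPM per kb used summed exon lengths of GENCODE on GRCm38, which has the coordinates of mm10. The biological coefficient of variation was 0.145, and 3 counts was the floor of detection. Counting error in the deeper control libraries was smaller than in the *Cnot3*-cKO ones.

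The 35 genes, the other lists and the tests were chosen with earlier results of these data known. Named genes were all 35, *Cnot3*, listed genes past the study's thresholds, and *Stra8*, *Sohlh1*, *Mybl1*, *Rad21* and *Smc1a*; some listed genes are not reported here. Further genes of the other lists that passed or whose levels are given were named after their values were seen. Markers were given by range and count, with up to 3 defining genes of a list that moved. The late spermatocyte and spermatid list was an exception, and all 8 of its genes were named. Alternatives were RLE, upper quartile, library size and pan-germ cell scaling, no filter, a mean count of at least 50, a robust fit, DESeq2 1.42.0, a test against a fold change of 1.5, a replicate block and leaving out each library. The scripts were tested on simulated data. Figures used matplotlib 3.10.9.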

Additional observations from a re-analysis of the deposited data

How the results depend on the processing

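The median log2 fold change of all tested genes was 0.18 under scaling to pan-germ cell markers, beside 0.01 as reported, and the share of passing genes that were higher was 64.4% under library size scaling and 81.3% under pan-germ cell scaling, beside 54.0% as reported. Of the 35 genes, 8 rose and 3 fell under library size scaling, beside 3112 and 1717 of all 23952 tested genes. Under pan-germ cell scaling 8 of the 35 rose and 2 fell, beside 3832 and 882 of all 23952, and the median of the 35 was 0.22. In edgeR's test against a fold change of 1.5, 1 rose (*Meiob*) and 1 fell (*Meioc*), beside 803 and 138 of all genes at the same adjusted p under 0.05. At the study's thresholds 0 of the 35 were called in either direction in that test. The lower call at the study's thresholds went to 0 under the robust fit, DESeq2 and without control replicate 2. Leaving out each library gave 3 to 6 higher and 2 to 6 lower genes, with 0 to 1 lower at the study's thresholds; *Syce3* (-0.63) and *Terb1* (0.55) passed without control replicate 1.

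Of the 66 tested genes of the 4 other meiotic and cohesin lists, 6 rose and 13 fell as reported, 11 rose under library size scaling, 14 rose and 5 fell under pan-germ cell scaling, 10 rose with a mean count of at least 50, and 1 rose and 1 fell against a fold change of 1.5; leaving out each library gave 2 to 10 higher and 8 to 22 lower.

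Some values that did not pass changed sign. Without a filter the values that turned were -0.0070 for *Sycp2*, -0.023 for *Dmc1*, -0.011 for *Mlh3* and -0.014 for *Terb2*. By DESeq2 the values that turned were -0.0044 for *Sycp2*, -0.020 for *Dmc1*, -0.0085 for *Mlh3* and -0.0095 for *Terb2*. Under RLE scaling the value that turned was -0.0063 for *Dmc1*. Under upper quartile scaling the values that turned were 0.015 for *Spo11* and 0.018 for *Psmc3ip*. Under library size scaling the values that turned were 0.043 for *Spo11*, 0.042 for *Psmc3ip* and 0.023 for *Rad21*. Under pan-germ cell scaling the values that turned were 0.056 for *Tex12*, 0.15 for *Spo11*, 0.15 for *Psmc3ip*, 0.13 for *Rad21* and 0.038 for *Smc1a*. With a mean count of at least 50 the values that turned were 0.0086 for *Spo11* and 0.0083 for *Psmc3ip*. Leaving out each library gave -0.037 to 0.062 for *Sycp2*, -0.052 to 0.21 for *Rec8*, -0.12 to 0.049 for *Spo11*, -0.14 to 0.21 for *Mei1*, -0.12 to 0.21 for *Rec114*, -0.062 to 0.045 for *Dmc1*, -0.20 to 0.13 for *Psmc3ip*, -0.0022 to 0.31 for *Msh4*, -0.039 to 0.046 for *Mlh3*, -1.01 to 0.10 for *Majin*, -0.17 to 0.17 for *Terb2*, -0.39 to 0.039 for *Sohlh1* and -0.14 to 0.038 for *Rad21*. The cause was not tested.

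With the replicate number as a block, 4 of the 35 rose and 5 fell, the same genes as without it, at a median of the list that kept its sign. Whether libraries of the same number belong together is not given in the sources used here. The deviations of the number 1 libraries correlated at 0.085 over 15519 genes, which cannot decide it with 2 libraries a group. Among all genes 2993 rose and 2690 fell under the block, beside 2659 and 2266. With a library left out, its group's lone library was assumed to vary like the other group. At 2 libraries a group, changes of low genes such as *Majin* (SE 0.35) were not detectable unless large.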
